A study of Mus musculus with 2 samples.

Results

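The 10 genes described here, which restrain the cell cycle, were measured in epidermal keratinocytes of K14-caSmad1 mice and of wild-type mice. They are Cdkn1a, Cdkn1b and Cdkn1c, Cdkn2b and Cdkn2c, Rb1, Rbl1 and Rbl2, and Gadd45b and Btg2. Every gene spot carrying 1 of these names in both scanner files was taken, which gave 10 of 28090 gene names, 18 of 41174 probes and 45 of 43379 gene spots on each array. The study hybridised 2 two-colour Agilent arrays of 60-base probes. Wild-type RNA was in Cy3 and K14-caSmad1 RNA in Cy5 on both arrays, so there was no dye swap. The wild-type group was FVB/NJ mice at day 20 after birth without the transgene. The K14-caSmad1 group was FVB/NJ mice of the same age that overexpress a constitutively active Smad1, a transcription factor of bone morphogenetic protein signalling, from a transgene named after keratin 14, the keratin of basal keratinocytes. Both groups were sampled as primary epidermal keratinocytes, and the number and sex of the animals are not given in the sources used here.

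In the labels the arrays are biological replicates 1 and 2. The difference in log2 ratio between them had an SD of 0.0946 over 12287 probes with 1 spot, where spot noise alone predicts 0.106, and of 0.0523 over 92 repeated probes, where it predicts 0.0344. The single-spot probes thus differed by no more than spot noise, and the repeated probes by more. As the cautious choice, the arrays were counted as 1 sample. Values are given for each array, and no error between animals can be stated. A log2 ratio is K14-caSmad1 over wild type, so that a positive ratio means more signal in K14-caSmad1. A probe was called 2-fold where its ratio passed 1, or fell below -1, on each array. Probes had to be well above background on both arrays in at least 1 of the groups, which 15105 probes did. The brightness of a probe depends on its sequence, so levels are compared between groups and never between probes.

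A cell enters S phase when cyclin-dependent kinases, switched on by cyclins, phosphorylate the retinoblastoma (pocket) proteins and free the E2F transcription factors. Brakes act at several steps. Cip/Kip proteins (p21, p27 and p57, from Cdkn1a, Cdkn1b and Cdkn1c) bind cyclin-kinase complexes. INK4 proteins (p15 and p18, from Cdkn2b and Cdkn2c) bind Cdk4 and Cdk6 and keep cyclin D away. The pocket proteins Rb, p107 and p130 (Rb1, Rbl1 and Rbl2) hold E2F at its target genes. Gadd45b and Btg2 are quickly induced by stress and growth arrest signals. In skin, basal cells divide and stop dividing as they move into the suprabasal layers, while matrix cells at the base of a growing hair divide and then build the hair shaft.

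The probes that carried the lower readings are shown by their first 30 bases, since the 3 probes of Btg2 and the 2 of Gadd45b report on different stretches of 1 transcript and did not read alike.
Btg2 A_52_P35217: aggttctggctatcgctgtatccgtatcaa
Btg2 A_52_P925197: aagaactatgtgatggccgtctccagctag
Btg2 A_52_P31543: ttaaatcttcaattctttactgtccttgtt
Gadd45b A_51_P500984: cgcttgcatatttttaaaaatttctactac
Gadd45b A_52_P1197913: ctatatctctctagaggaacgctgagaccc
Cdkn1c A_51_P339540: cgtagagcagcccacggttttgtggaaatc
The 2 Cdkn2c probes share a run of 40 bases, so they are not independent readings of the gene; the first 30 bases of the run are given.
Cdkn2c shared run: ccgttagttggttggctgtccgtttcacta

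Of the 10 genes, 8 had at least 1 promoter in the RefSeq table of build GRCm38.p6, with 10 windows in all. Cdkn1c and Rb1 are named only. Windows of 250 bases before the start were searched on both strands, and capitals mark matches. The promoters of the genes with the lowest and the highest ratio and that of Gadd45b are shown.
Btg2, chr1:134079156-134079405, minus strand: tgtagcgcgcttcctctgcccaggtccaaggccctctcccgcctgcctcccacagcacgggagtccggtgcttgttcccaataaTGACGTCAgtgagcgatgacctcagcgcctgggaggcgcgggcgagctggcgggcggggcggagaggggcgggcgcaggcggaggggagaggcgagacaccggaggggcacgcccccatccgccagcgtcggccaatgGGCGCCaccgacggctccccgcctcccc
Gadd45b, chr10:80929841-80930090, plus strand: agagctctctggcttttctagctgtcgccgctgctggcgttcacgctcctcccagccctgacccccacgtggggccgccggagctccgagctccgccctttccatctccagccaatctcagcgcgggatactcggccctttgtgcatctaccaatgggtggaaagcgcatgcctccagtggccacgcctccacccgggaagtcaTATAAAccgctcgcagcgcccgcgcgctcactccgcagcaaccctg
Rbl1, chr2:157204535-157204784, minus strand: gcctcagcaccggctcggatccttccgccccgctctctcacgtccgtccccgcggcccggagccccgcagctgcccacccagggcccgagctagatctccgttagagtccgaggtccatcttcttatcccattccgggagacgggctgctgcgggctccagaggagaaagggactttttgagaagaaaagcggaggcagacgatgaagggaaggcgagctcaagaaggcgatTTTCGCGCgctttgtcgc
The Btg2 window held the cAMP response sequence TGACGTCA 166 bases before the start and the GC-rich Smad1 sequence GGCGCC 28 bases before it. Gadd45b held TATAAA 46 bases before its start. Rbl1 held the E2F sequence TTTCGCGC 18 bases before its start. Among all 32851 windows, TGACGTCA occurred in 1.55%, GGCGCC in 9.59%, TATAAA in 12.4%, and any of the E2F sequences TTTCCCGC, TTTCGCGC, TTTGCCGC and TTTGGCGC in 1.86%. Cdkn2b also held TGACGTCA, and Cdkn1b and Cdkn2c held GGCGCC. One Cdkn1a window held 2 matches to the p53 decamer; 7.13% of all windows hold at least 1 match and 0.259% hold at least 2. The CCAAT box (CCAAT) was searched too and not capitalised; it occurred in 33.8% of all windows. The Smad palindrome GTCTAGAC (0.167% of windows), the AP-1 sequences TGACTCA and TGAGTCA (4.46%) and the serum response element (1.47%) had no match in the members' windows. A match is a run of letters and no evidence of binding.

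Btg2 and Gadd45b read lower in K14-caSmad1 keratinocytes, and Rbl1, Cdkn2c, Rbl2, Rb1 and Cdkn2b read higher by less than 2-fold. Of 14 member probes tested, 3 were lower by 2-fold on both arrays and 0 were higher. Among all tested probes 13.3% were called, 9.49% lower and 3.79% higher. The members' 3 lower probes belong to Btg2, Gadd45b and Cdkn1c. With so few probes these shares are a description.

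**Figure D1:**
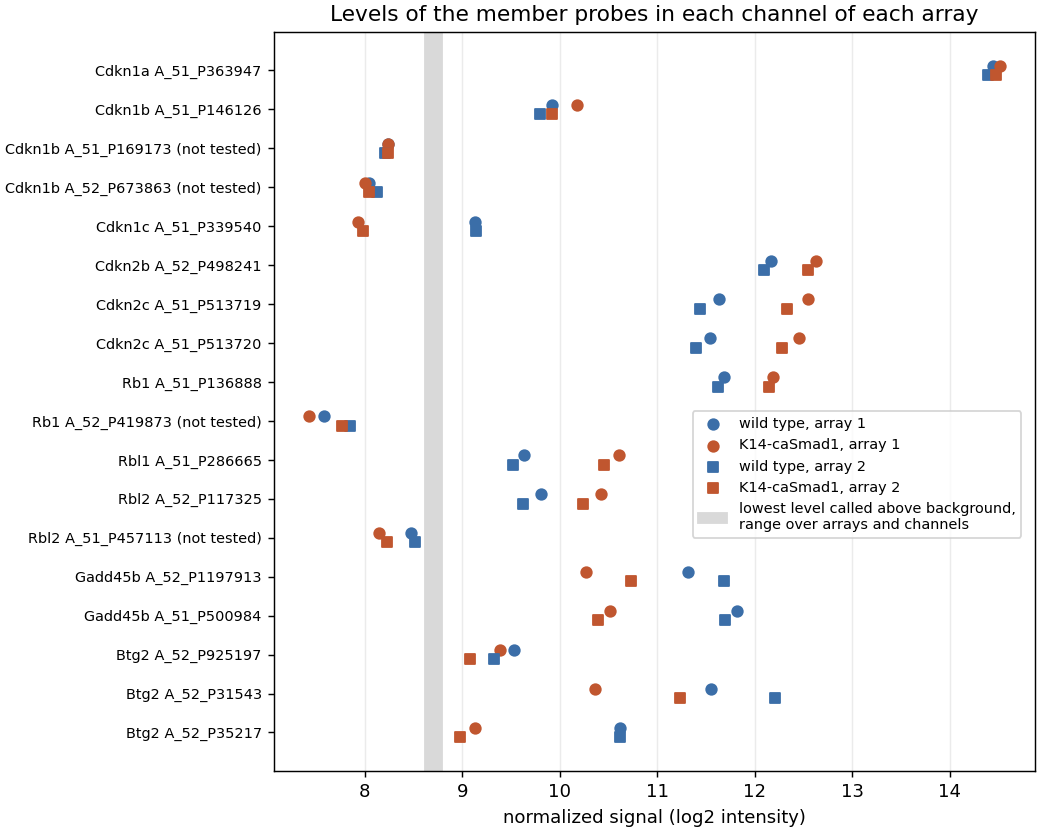
Normalized signal (log2 intensity, x axis) of all 18 probes of the 10 genes (y axis), with circles for array 1 and squares for array 2 in wild type (blue) and K14-caSmad1 (orange); the grey band is the lowest level called above background. The Btg2 and Gadd45b probes sit lower in K14-caSmad1, and the Cdkn1a probe has nearly equal levels in both groups (14.44 and 14.39 in wild type, 14.51 and 14.47 in K14-caSmad1).

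Btg2, a member of the BTG/TOB family of antiproliferative genes and a target of p53, lies on chromosome 1. Probe A_52_P35217 (mm9, 135974181 to 135974240, minus strand, position 284 of its transcript) had wild-type levels of 10.61 and 10.62 on arrays 1 and 2 and K14-caSmad1 levels of 9.13 and 8.98. The log2 ratios were -1.48 and -1.64, a mean of -1.56 or 2.95-fold lower, and the ratio of 4.75% of tested probes was lower still.

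A second Btg2 probe near the transcript's end, A_52_P31543 (135972094 to 135972153, position 2371), had levels of 11.55 and 12.20 in wild type and 10.36 and 11.23 in K14-caSmad1. Its ratios of -1.20 and -0.97 averaged -1.08 (2.12-fold lower), and it missed the call because of array 2. It had the largest difference between arrays of all tested member probes, 0.23. Probe A_52_P925197 (135973916 to 135973975, position 549), which lies between the other two, had levels of 9.53 and 9.33 against 9.38 and 9.08, which overlap between the groups. Its mean ratio was -0.20, and it turned to 0.03 when ratios were centred on the median in place of loess. Under that centring the median of all tested probes was 0.23, against -0.02 with loess. The 3 probes thus gave Btg2 ratios from -1.56 to -0.20.

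Gadd45b, a stress-induced gene that activates a kinase cascade through Mtk1, lies on chromosome 10. Probe A_51_P500984 (mm9, 80394890 to 80394949, plus strand, position 1206) had levels of 11.82 and 11.69 in wild type and 10.52 and 10.39 in K14-caSmad1. The ratio was -1.30 on both arrays, or 2.46-fold lower. Probe A_52_P1197913 (80394367 to 80394426, position 683) had 11.31 and 11.69 against 10.27 and 10.73. Its ratios of -1.05 and -0.96, a mean of 2.00-fold lower, left it just outside the call. Both Gadd45b probes therefore read lower, and 1 passed the call.

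**Figure D2:**
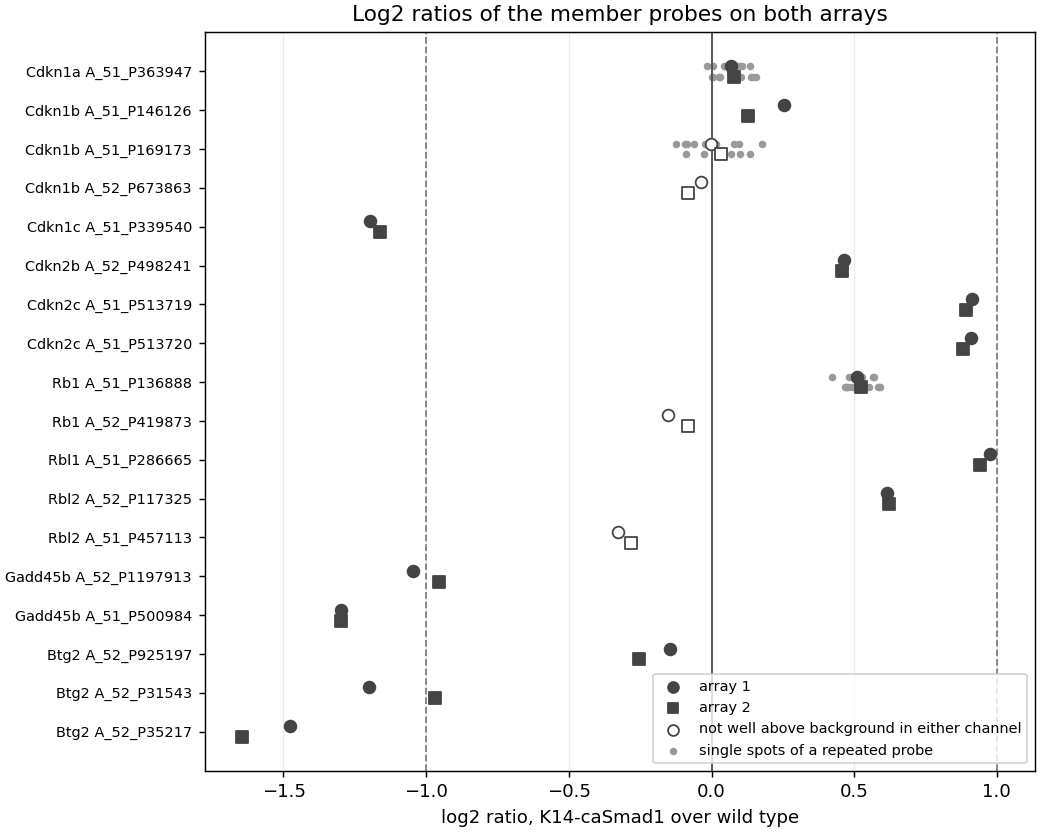
Log2 ratio of K14-caSmad1 over wild type on each array (x axis; circles array 1, squares array 2) for every probe of the 10 genes (y axis), with open symbols for probes not well above background, grey dots for single spots and dashed lines at 2-fold. The tested probes of Btg2, Gadd45b and Cdkn1c lie left of 0, with means from -1.56 to -0.20, and those of Rbl1 and Cdkn2c lie closest to 1 on the right.

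Among the Cip/Kip genes, Cdkn1a and Cdkn1b read nearly alike in both groups and Cdkn1c read lower near background. Cdkn1a (p21, induced by p53 and by transforming growth factor beta) was measured by 1 probe, A_51_P363947 (mm9, chromosome 17, 29237377 to 29237436, position 1619), with levels of 14.44 and 14.39 in wild type and 14.51 and 14.47 in K14-caSmad1. The probe was spotted 10 times, of which 9 spots were used on array 1. Their ratios ran from -0.02 to 0.14 on array 1 (SD 0.0492) and from 0.00 to 0.16 on array 2 (SD 0.0591). The means were 0.07 and 0.08, or 1.05-fold. The ratio was above 0 in 8 of 9 spots and in 10 of 10.

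Cdkn1b encodes p27, a protein set largely by its turnover. Probe A_51_P146126 (mm9, chromosome 6, 134875215 to 134875274, position 2076) had levels of 9.92 and 9.80 in wild type and 10.18 and 9.93 in K14-caSmad1. The ratios of 0.26 and 0.13 averaged 0.19 (1.14-fold). Across the settings tried, the ratio of this probe ran from 0.12 to 0.48. The other 2 Cdkn1b probes were not tested. A_51_P169173 (134871103 to 134871161, position 684), spotted 10 times, was above background in 0 spots in either group. Its mean ratio was 0.02, with spot SDs of 0.0958 on array 1 and 0.0703 on array 2. A_52_P673863 (134873606 to 134873665) read -0.04 and -0.08 near background.

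Cdkn1c encodes p57 and is imprinted, with expression from the maternal copy. Its probe A_51_P339540 (mm9, chromosome 7, 150644753 to 150644812, minus strand, position 1281) had levels of 9.13 and 9.14 in wild type and 7.93 and 7.98 in K14-caSmad1. It was not well above background in K14-caSmad1, so Cdkn1c is given as at least 1.35-fold lower there. The bound sets the wild-type mean against the lowest signal well above background, and the measured ratio was -1.18. This bound is no strict limit, since some probes brighter than that lowest signal did not pass the filter. It did not hold on array 1 with all spots in the background fit. The Cdkn1c probe passed the background filter through the wild-type channel alone. For a dim probe that passes in this way the filter favours a lower reading in the other group, so the direction is no separate result.

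Both INK4 genes read higher in K14-caSmad1. Cdkn2b (p15, a gene induced by transforming growth factor beta) had levels of 12.16 and 12.09 in wild type and 12.62 and 12.55 in K14-caSmad1 at probe A_52_P498241 (mm9, chromosome 4, 88952437 to 88952496, minus strand, position 1016). The ratio was 0.46 on both arrays (1.38-fold), and 81% of tested probes lay below it.

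Cdkn2c encodes p18, and E2F proteins drive its gene in dividing cells. At probe A_51_P513719 (mm9, chromosome 4, 109333779 to 109333838, minus strand, position 748) the levels were 11.63 and 11.44 in wild type and 12.55 and 12.33 in K14-caSmad1. The ratios were 0.91 and 0.89, or 1.87-fold, higher than those of 94.3% of tested probes. The overlapping probe A_51_P513720 (109333757 to 109333818) read 11.54 and 11.39 against 12.45 and 12.27, or 1.86-fold. Neither Cdkn2c probe reached 2-fold. Cdkn2d (p19), another INK4 gene and no member here, had a mean ratio of 0.54. Cdkn2a, the gene of p16 and p19Arf, was not well above background.

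All 3 pocket protein genes read higher in K14-caSmad1, by 1.43 to 1.94-fold. Rbl1 (p107, most abundant in cycling cells) had levels of 9.63 and 9.52 in wild type and 10.61 and 10.46 in K14-caSmad1 at A_51_P286665 (mm9, chromosome 2, 156972143 to 156972202, minus strand, position 4294). The ratios of 0.97 and 0.94 averaged 0.96, or 1.94-fold. This was the highest ratio among the members, above that of 95.2% of tested probes.

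Rbl2 encodes p130, the pocket protein most abundant in resting cells. Probe A_52_P117325 (mm9, chromosome 8, 93647120 to 93647179, plus strand, position 4264) had levels of 9.81 and 9.62 in wild type and 10.42 and 10.24 in K14-caSmad1. The ratios of 0.61 and 0.62 gave 1.54-fold. The other Rbl2 probe, A_51_P457113 (93646362 to 93646421, position 3506), was near background and not tested, with ratios of -0.33 and -0.28. The 2 Rbl2 probes thus differed in sign, and 1 of them was measured above background.

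Rb1 encodes the retinoblastoma protein. Probe A_51_P136888 (mm9, chromosome 14, 73595408 to 73595467, minus strand, position 4415) had levels of 11.68 and 11.62 in wild type and 12.19 and 12.14 in K14-caSmad1. Of its 10 spots, 8 were used on array 1 and 10 on array 2. All were higher in K14-caSmad1, with ratios from 0.42 to 0.57 (SD 0.0489) on array 1 and from 0.47 to 0.59 (SD 0.0522) on array 2. The means of 0.51 and 0.52 gave 1.43-fold. The other Rb1 probe, A_52_P419873 (73662360 to 73662419, position 1691), was near background and read -0.15 and -0.08.

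The arrays repeated each other closely for these genes. The median difference between arrays was 0.0313 over the 14 tested member probes and 0.0446 over all tested probes. By limma with Benjamini-Hochberg adjustment over all tested probes, 13 of 14 member probes passed 0.05, against 86.6% of all tested probes. Cdkn1a did not (limma adjusted p = 0.0519). These p-values measure how well the 2 arrays repeat and hold no error between animals, so the size of a ratio is read here and not its p.

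**Figure D3:**
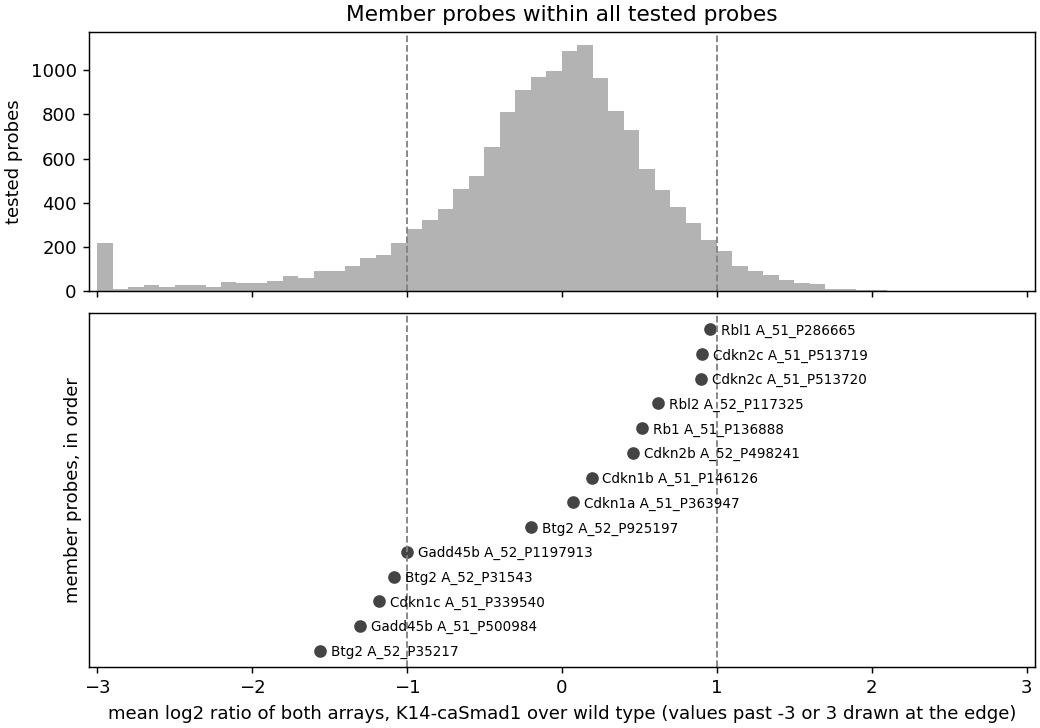
Distribution of the mean log2 ratio (x axis) over all 15105 tested probes, with the number of probes on the y axis above and the 14 tested member probes in order of ratio below; dashed lines mark 2-fold. All tested probes have a median of -0.02, and the members run from the lower tail (Btg2, -1.56) to the upper shoulder (Rbl1, 0.96).

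With each gene read by its brightest tested probe, 7 of the 10 genes were above 0 on both arrays and 3 below (Btg2, Gadd45b and Cdkn1c), with a median ratio of 0.33. The median over all 11748 measured genes was -0.03. By this reading 2 of the 10 genes were called lower and 0 higher, against 9.81% and 4.09% of all measured genes, because the brightest Btg2 probe is A_52_P31543. Counted by probes, 8 were above 0 on both arrays and 6 below, with a median of 0.13.

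Cyclins, kinases and their regulators read mostly higher. Of 10 measured G1 cyclins and kinases, 10 were above 0 on both arrays, with a median of 0.55, and 1 was called higher. That gene was Ccne2 (cyclin E2), at least 1.41-fold higher and above background in K14-caSmad1 only. Ccnd1 (cyclin D1) had a mean ratio of 0.73 and Cdk4, its kinase partner, 0.57, both short of 2-fold. Cdk2 was not well above background, and nor was Cdk1 of the S, G2 and M phase list. Of 9 S, G2 and M phase cyclins and kinases, 9 were above 0 (median 0.58), and Ccna2 (cyclin A2, 1.31) and Bub1 (a spindle checkpoint kinase, at least 2.27-fold higher) were called. Of these 9 genes, 3 passed the background filter through K14-caSmad1 alone, which favoured a higher reading.

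The E2F targets of DNA replication, which the pocket proteins restrain, had a median of 0.83 over 17 measured genes. All 17 were above 0 on both arrays, 7 were called higher and 0 lower. Mcm4 and Mcm6, subunits of the replicative helicase, had mean ratios of 1.88 and 1.45. Rrm2 and Rrm1, the subunits of ribonucleotide reductase, had 1.85 and 1.36. Of 14 measured E2F, DP and MuvB factors, 9 were above 0 and 5 below, with a median of 0.38 and 0 called in either direction. Of these 14, 3 passed the background filter through K14-caSmad1, of which 1 was above background in wild type on 1 array too. Through wild type, 1 passed alone and 1 more with K14-caSmad1 above background on 1 array. The filter favoured the direction of such genes. With no filter the median was 0.13, with 8 of 18 genes below 0. E2f1 was above background in K14-caSmad1 only, at least 1.37-fold higher.

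**Figure D4:**
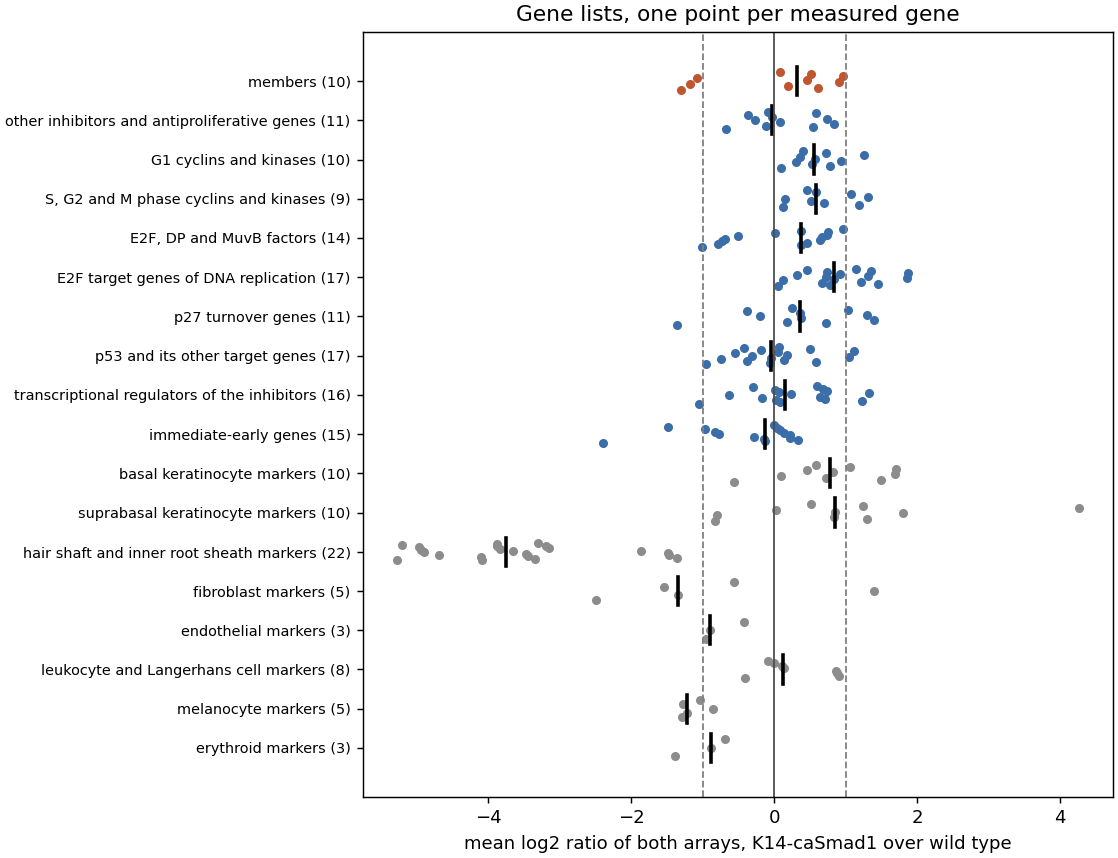
Mean log2 ratio of each measured gene (x axis; its brightest tested probe) in the 10 members and the other gene lists (rows), with a black bar at the median of each list and dashed lines at 2-fold. The 22 measured hair markers all lie below 0, with a median of -3.75, and the E2F targets have a median of 0.83.

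Genes listed as linked to p27 protein turnover had a median of 0.36 over 11 measured, with 2 called higher and 1 lower. Cks1b (1.39), a cofactor of the Skp2 ligase, and Cks2 (1.30), its paralog, were higher. Rnf123 (-1.35), a ubiquitin ligase for p27, was lower. Skp2 itself was not well above background. Of 17 measured p53 pathway genes other than the members, 8 were above 0 and 8 below, with a median of -0.04. That median was above 0 under other settings (0.25 with median centring, where the median of all genes was 0.22). By brightest probe, only the desmosome gene Perp (1.11) was called. Some dimmer probes of the list were lower by 2-fold: Sfn, a cell cycle arrest gene, read -0.74 at its brightest probe and -1.92 and -0.40 at the others, and Sesn2, a stress gene, read 0.07 and -1.89. Sfn and Sesn2 were named after their values were seen. Trp53 read -0.42 and was above background on both arrays in wild type but on 1 array in K14-caSmad1.

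Among 11 other inhibitors and antiproliferative genes, 5 were above 0 and 5 below, with a median of -0.03 and 0 called in either direction. With median centring that median was 0.28, where the median of all genes was 0.22. Of 16 measured transcriptional regulators known to act on the inhibitors, 10 were above 0 and 4 below, with a median of 0.15. With no filter the median was 0.05 over 20 genes. Klf10 (1.32) and Klf4 (1.22), of the Krüppel-like family, were called higher. Foxo3, a factor that activates Cdkn1b, was called lower (at least 1.98-fold). Its probe passed the background filter through wild type alone, which favoured a lower reading. Myc, a repressor of Cdkn1a and Cdkn2b, read -0.17 and Smad3 was not well above background.

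The immediate-early genes, which share with Btg2 and Gadd45b a quick response to stimuli, had a median of -0.13 over 15 measured. With median centring it was 0.17, where the median of all genes was 0.22. Of the 15 immediate-early genes, 6 were above 0 and 8 below, 0 were called higher and 2 lower. The 2 were Fos (-1.48), a subunit of AP-1, and Klf2, at least 4.19-fold lower. This Klf2 probe passed the background filter through wild type alone. Klf2 had another tested probe, which read higher at 0.45, so its probes disagree.

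Cell type markers moved between the groups beside these values. Hair shaft and inner root sheath markers were lower in 22 of 22 measured genes, with a summed linear level of 3218000 and 3315000 in wild type and 227700 and 216700 in K14-caSmad1. Krt33a (-5.27), Krt86 (-5.20), Krt28 (-4.97) and Krt34 (-4.94) fell furthest. In bulk RNA, fewer hair cells and less of these RNAs per cell cannot be told apart, and the same holds for the lower Btg2, Gadd45b and Cdkn1c readings. The hair markers' part in the members' values was not tested.

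Basal keratinocyte markers were above 0 in 9 of 10 genes (4 called higher, median 0.77), with summed levels of 211000 and 203000 in wild type and 379600 and 399900 in K14-caSmad1. They included Krt5 (1.70), Trp63 (1.69), Itga6 (1.54 and 1.46 on the arrays) and Krt14 (1.07). Trp63 had another tested probe that read -0.78. Suprabasal markers were above 0 in 8 of 10 (4 called higher, median 0.85), from 421300 and 387400 to 682000 and 693700. They included Krt2 (4.26), Krt1 (1.80), Dsc1 (1.30) and Dsg1a (1.25). Krt10 read 0.02 at its brightest probe and 2.29 at another, so its probes disagree. The labelled keratinocyte origin thus had its defining keratins above background in both groups, beside abundant hair keratins in wild type. The part of the basal and suprabasal markers in the members' ratios was not tested.

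The sums given for cell type markers cover every listed gene on the array, those not above background included. Of 5 measured fibroblast markers, Col3a1 (at least 3.13-fold), Col1a1 (at least 2.39-fold) and Col1a2 (at least 2.08-fold) were called lower and not well above background in K14-caSmad1, and Vim (1.39) was called higher. All measured fibroblast markers but Vim passed the background filter through wild type alone, which favoured a lower reading. The sum over the 9 listed genes was 11030 and 11510 in wild type and 18640 and 18580 in K14-caSmad1, and Vim set its direction: without Vim it was 5184 and 5119 against 2602 and 2561. Melanocyte markers were below 0 in 5 of 5, with sums of 7218 and 6924 against 3642 and 3198, and Pmel (-1.28) and Mitf (at least 1.74-fold) were called lower. Of these 5, 3 passed the filter through wild type alone, which favoured a lower reading. All 3 measured endothelial markers passed through wild type alone, so that the filter favoured their ratios below 0, and none was called. Their sums were 3765 and 3677 against 2899 and 2751. Of 8 leukocyte and Langerhans cell markers 5 were above 0 and none was called; the sums were 40550 and 44730 against 50970 and 53560. Of 3 erythroid markers 3 were below 0, of which 1 passed through wild type alone, with sums of 5445 and 5322 against 2654 and 2654, and Hba-a1 (-1.39) was called. Their part in the members' values was not tested.

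The size of several members' ratios changed with the processing. The direction of 13 of the 14 tested member probes was the same in every setting tried, and A_52_P925197 of Btg2 was the exception given above. Btg2 at A_52_P35217 ran from -2.44 with the scanner software's processed signals to -1.02 with all spots in the background fit. With all spots in that fit, the 3 called member probes lost their call through array 1, where Btg2 A_52_P35217 read -0.39, Gadd45b A_51_P500984 read -0.73 and Cdkn1c read -0.13. Cdkn1c ran from -3.22 to -0.65 and also lost its call without background correction. Rbl1 ran from 0.65 to 1.49 and Cdkn2c at A_51_P513719 from 0.89 to 1.21, so that both passed 2-fold with processed signals and with median centring. Gadd45b at A_51_P500984 read -0.99 with median centring and was not called there. Centring moved the median of all genes by more than 0.1, from -0.03 to 0.22, and the share of higher among called probes from 28.6% to 57.7%.

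**Figure D5:**
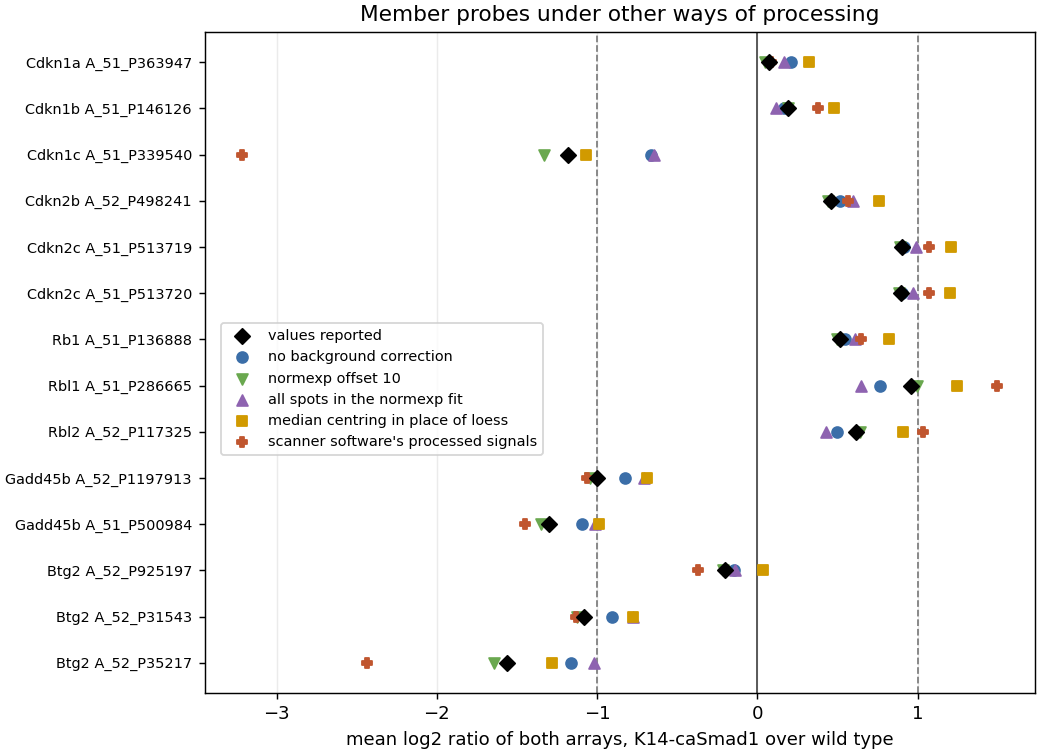
Mean log2 ratio of K14-caSmad1 over wild type (x axis) of each tested member probe (y axis) as reported (black diamonds) and under 5 other ways of processing (coloured symbols), with dashed lines at 2-fold. Cdkn1c has the widest spread, from -3.22 to -0.65, and the Cdkn1a points stay between 0.05 and 0.32.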

How the data were processed

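The genes and gene lists were chosen with earlier results of these data known. RNA was column-purified, amplified in a single round and labelled in 2 colours, per the labels' protocols. The deposited scanner files hold mean and local background intensity and processed intensity for each spot and channel, written by Agilent Feature Extraction 10.5.1.1, with probe positions on mm9, per the file headers. They also hold a deposited log10 ratio of Cy5 over Cy3; the deposited series table holds log10 ratios that differ by at most 0.00397 from the ratio of the processed signals and by at most 0.059 (array 1) and 0.025 (array 2) from the scanner files' own ratio column, with medians of 0.023 and -0.01, so its scale and direction are known.

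Background was corrected with limma 3.58.1 (R 4.3.3; normexp, offset 50) after removal of 36 spots of array 1 that the software flagged for a non-uniform local background. Log2 ratios were normalized within each array by loess (span 0.3, control spots at weight 0). Channel levels and bounds came from a quantile step on mean levels (Aquantile). Outlier spots were left out on the array concerned, 0 gene spots were saturated, and repeated spots were averaged. Each array had 45018 spots, and the number of spots well above background was 15570 and 16144 in wild type and 14412 and 15800 in K14-caSmad1. Having 2 arrays limits the precision.

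A probe with only 1 group above background is given as at least N-fold, the brighter group's mean against the higher of its own dim signal and the lowest signal well above background. Some probes brighter than that lowest signal did not pass the background filter, so N is no strict limit. With no balanced dye swap, dye bias stays in all values. P-values came from lmFit and eBayes. Gene names were updated through RefSeq GRCm38.p6 (of the probes, 24844 were found through their accession, 6045 through the symbol and 1810 through a synonym, while 8475 were left as named by the scanner software). All member probes are given. In each other list, up to 4 genes with the largest ratio among those called, and Cdkn2a, Cdkn2d, Trp53, Myc, Ccnd1, Cdk4, Cdk2, E2f1, Skp2 and Smad3 whatever their values, are named. A gene is read by its brightest tested probe. On simulated arrays of 12379 probes, all of the probes changed 2.5-fold or 4-fold were called (100%), and 0% of 67 changed 1.5-fold. The changed probes were all above background in both groups, and no fold between 1.5 and 2.5 was simulated. The simulation therefore does not cover dim probes such as that of Cdkn1c or ratios close to 2-fold. Alternatives changed the background correction, the normalization, the filter and the arrays used. Exon and UTR positions of the probes were not analysed here.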

Additional observations from a re-analysis of the deposited data

How the results depend on the processing

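The counts of called probes changed with the background correction and the scaling. The 2006 called probes (573 higher, 1433 lower) became 4127 (1679 and 2448) with processed signals, 4118 (1676 and 2442) with the deposited table and 879 (341 and 538) with all spots in the background fit. Without background correction 918 were lower, and with median centring 1355 were higher. The 3 called member probes became 8 (4 higher) with processed signals, 7 (4 higher) with the deposited table, 5 (3 higher) with median centring and 0 with all spots in the background fit, where 0 were lower and Btg2, Gadd45b and Cdkn1c lost their calls. Leaving out 1 array gave 2151 to 2186 called probes and 3 to 5 member probes, all lower: without replicate 2, A_52_P1197913 of Gadd45b and A_52_P31543 of Btg2 were called too. Limma passed 3732 probes with all spots in the background fit and 24812 with no detection filter, against 13080. The share of higher among called probes was 40.7% with processed signals and 38.8% with all spots in the background fit, against 28.6%. The cause of these shifts was not tested. The setting without the filter also covered more probes, 41141 against 15105. Each ratio already pairs both groups within 1 array, so no further replicate block could be fitted. Signal over background limits Cdkn1c and the probes not tested.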
